A study of Mus musculus with 18 samples.

Results

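The receptors and ligands of interleukin-1 (IL-1), interleukin-18 (IL-18) and interleukin-33 (IL-33) were followed through 4T1 cells, a BALB/c mammary carcinoma line that stands in for human triple-negative disease. The set held 9 genes, picked by symbol: Il18rap, chosen because its count was several-fold higher in the input of cells with a hairpin against Dap5, and 8 related genes (Il18r1, Il1rl1, Il1rl2, Il1r1, Il1r2, Il1rap, Il18 and Il33). All 9 were among the 35976 symbols listed, and 7 passed the filter on low counts and entered the fit over 15072 genes; Il18r1 and Il1rl2 did not.

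Cells carried a doxycycline-inducible hairpin, directed at Dap5 (shDap5) or non-silencing (NSi), and both arms had received 2 µg/ml doxycycline for 6 days. Polyadenylated RNA was counted in whole lysate (input) and in pooled light and pooled heavy polysomes from sucrose gradients, with 3 libraries for each arm and fraction and 18 in all. Both arms are represented by a single line, without uninduced cells, so a difference that predates induction and a response to the hairpin cannot be told apart. The labels do not state whether replicate libraries stem from different cultures; if they do not, p-values cover technical spread alone. Total counts ran from 30385863 to 71331978 per library. Eif4g2, which encodes DAP5, a translation initiation factor related to eIF4G, averaged 338 ± 80.6 CPM in shDap5 and 1022 ± 275 CPM in NSi on light polysomes (SD, n = 3 each; edgeR adjusted p = 0.00204). On heavy polysomes it averaged 286 ± 68.5 CPM in shDap5 and 782 ± 108 CPM in NSi (adjusted p = 0.00349). In input Eif4g2 stood at 592, 340 and 671 CPM in shDap5 and at 799, 759 and 852 CPM in NSi. The arms did not overlap there. By edgeR the input difference was not called (log2 -0.59, SE 0.26, adjusted p = 0.202), but it was with the replicate number as a block inside each fraction (log2 -0.64, adjusted p = 0.00454). CPM are counts scaled to library size and composition (TMM), and values by library are given in the order of replicates 1, 2 and 3.

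As background, receptors of this family pair a ligand-binding chain with an accessory chain. The chains meet through cytoplasmic TIR domains, which recruit MyD88 and IRAK kinases and lead to NF-κB and MAP kinases. IL-18 binds the chain encoded by Il18r1 and signals once the Il18rap chain joins it. IL-33 binds ST2, the product of Il1rl1, and IL-1 binds the product of Il1r1; both use the accessory chain of Il1rap, as does the IL-36 receptor chain of Il1rl2. The product of Il1r2 binds IL-1 but lacks the signalling domain and acts as a decoy. The IL-18 and IL-33 receptors are best known from T cells, natural killer cells and mast cells, while IL-18 and IL-33 themselves are made by many epithelial cells. The receptor genes Il1r2, Il1r1, Il1rl2, Il1rl1, Il18r1 and Il18rap follow each other in that order on mouse chromosome 1, all on the plus strand. Il1rap lies on chromosome 16, Il18 on chromosome 9 and Il33 on chromosome 19.

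The stretches upstream of Il18rap and Il1rl1 are shown because these genes had the largest input differences in the set. They are the 250 bases before the annotated start (for Il1rl1, the start farther upstream of its 2), 5′ to 3′ on the plus strand, from RefSeq on GRCm38.p6. The first is chr1:40515112-40515361 and the second chr1:40429320-40429569.
Il18rap: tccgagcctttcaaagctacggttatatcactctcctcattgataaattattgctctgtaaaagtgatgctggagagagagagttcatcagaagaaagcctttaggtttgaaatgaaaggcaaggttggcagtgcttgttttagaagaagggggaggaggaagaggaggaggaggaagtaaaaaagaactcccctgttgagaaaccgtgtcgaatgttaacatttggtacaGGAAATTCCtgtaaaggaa
Il1rl1: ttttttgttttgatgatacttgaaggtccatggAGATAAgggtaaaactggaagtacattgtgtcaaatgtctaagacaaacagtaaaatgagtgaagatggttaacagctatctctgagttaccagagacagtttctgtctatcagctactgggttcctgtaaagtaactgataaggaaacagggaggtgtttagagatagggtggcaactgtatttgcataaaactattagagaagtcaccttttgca
Capitals mark matches. In the Il1rl1 window the match is AGATAA, a form bound by GATA factors, 217 bases before the start. In the Il18rap window it is a short form of the NF-kappaB motif, GGAANTTCC, 19 bases before the start; this form was added to the search after the window had been seen. Both strands were also searched for TGANTCA (AP-1), for TATAAA and for the full NF-kappaB motif, none of which was found in these windows, and no matches overlapped each other. Of 32851 such windows over all genes, 9.99% held AGATAA, 0.813% the short NF-kappaB form, 3.9% the full one, 6.75% the AP-1 motif and 12.4% TATAAA. The windows of Il1r2 and Il1rl2 also held the short form. A match is not a measured binding site. Il1rl1 is known in mice for a distal and a proximal promoter with different cell type use; counts per symbol do not separate the transcripts that start at them.

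Il18rap, the signal-transducing chain of the IL-18 receptor, had the highest mean level per length of the 9 genes in both arms. In NSi inputs, however, it did not differ from Il1rap beyond their spread (4.49 ± 0.376 and 4.13 ± 0.412 CPM per kilobase). In input it stood at 167, 55.2 and 138 CPM in shDap5 and at 23.8, 20.1 and 21.9 CPM in NSi. All shDap5 inputs lay above all NSi inputs, with shDap5 replicate 2 well below the other shDap5 libraries. The means were 120 ± 58.2 CPM in shDap5 and 22.0 ± 1.84 CPM in NSi (SD, n = 3 each), a fitted 5.47-fold difference (log2 2.45, SE 0.35). Since this difference chose the gene it is a description and carries no test. The same holds below for every difference between the arms in input among the 9 genes. Library by library, shDap5 over NSi was 7.03-fold for number 1, 2.74-fold for number 2 and 6.28-fold for number 3. Eif4g2 was lowest, at 340 CPM, in that same shDap5 input of replicate 2. Without this library the fitted log2 difference of Il18rap was 2.80.

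On light polysomes Il18rap stood at 62.1, 53.5 and 48.1 CPM in shDap5, against 42.3, 22.1 and 20.7 CPM in NSi. On heavy polysomes it stood at 62.0, 48.9 and 47.8 CPM in shDap5, against 36.0, 19.4 and 19.2 CPM in NSi. The arms did not overlap in either fraction, and NSi replicate 1 was high among the controls in both. The main fit did not use the replicate numbers, which were taken to pair the arms on polysomes. By that fit the log2 difference was 0.94 on light (SE 0.34, edgeR adjusted p = 0.150) and 1.09 on heavy polysomes (SE 0.34, adjusted p = 0.0866), so neither was called. With the replicate number as a block both passed, at log2 1.01 on light (edgeR adjusted p = 0.0149) and 1.14 on heavy polysomes (adjusted p = 0.00599); that fit called 6.72% of all genes on light and 7.44% on heavy polysomes. A block within each fraction gave adjusted p = 0.0214 on light and 0.0114 on heavy polysomes and called 16.1% and 18.3% of all genes there. On heavy polysomes DESeq2 also called it (adjusted p = 0.0328), as did the edgeR fits without NSi replicate 1 (log2 1.46, adjusted p = 0.0392), without shDap5 replicate 2 (adjusted p = 0.0405) and without the shDap5 input of replicate 2 alone (adjusted p = 0.0257). The call on polysomes therefore depended on the fit, while all alternatives kept the direction. Over 13 alternatives the log2 difference ran from 0.76 to 1.35 on light (adjusted p 0.0149 to 0.471) and from 0.93 to 1.46 on heavy polysomes (adjusted p 0.00599 to 0.375).

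The mean of Il18rap in shDap5 was 120 CPM in input, 54.6 ± 7.06 on light and 52.9 ± 7.90 on heavy polysomes. In NSi it was 22.0 CPM in input, 28.4 ± 12.1 on light and 24.8 ± 9.63 on heavy polysomes. The fold between the arms was thus 5.47 in input, 1.92 on light and 2.13 on heavy polysomes; whether the input fold differs from the others was not tested, because the input libraries chose the gene.

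Il1rl1, which encodes ST2, was low in every group but had the largest fold of the set in input. There it stood at 3.68, 0.409 and 3.0 CPM in shDap5 and at 0.297, 0.273 and 0.312 CPM in NSi. The arms did not overlap, but shDap5 replicate 2 lay close to the controls: the ratio to the NSi library of the same number was 1.50, against 12.4 and 9.62 for the other numbers. The fitted difference was 7.98-fold (log2 3.0, SE 0.68), resting on 461 counts in shDap5 and 56 in NSi. On light polysomes Il1rl1 stood at 0.790, 0.684 and 0.717 CPM in shDap5, against 0.659, 0.150 and 0.242 CPM in NSi, without overlap. On heavy polysomes it stood at 0.767, 0.416 and 0.480 CPM in shDap5, against 0.742, 0.110 and 0.198 CPM in NSi, where the arms overlapped. Here too NSi replicate 1 was the high control. Neither difference passed the edgeR test (light log2 1.03, SE 0.71, adjusted p = 0.531; heavy log2 0.62, SE 0.72, adjusted p = 0.721). Without NSi replicate 1 the log2 difference was 1.88 on light (adjusted p = 0.292) and 1.77 on heavy polysomes (adjusted p = 0.343). Without NSi replicate 2 it was 0.70 on light and 0.25 on heavy polysomes, so its size depended on which control library was left out, and none of the 13 alternatives called it in either fraction.

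**Figure D1:**
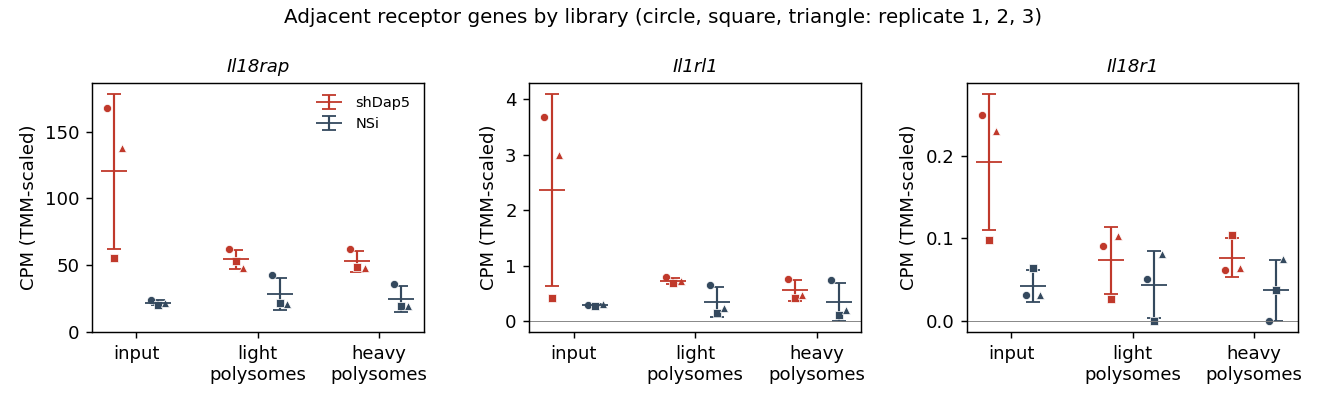
CPM after TMM scaling (vertical axis, from 0) of Il18rap, Il1rl1 and Il18r1 in input, light and heavy polysomes, shDap5 in red and NSi in blue; points are libraries, bars the mean ± SD of 3. In input all shDap5 points lie above the NSi points for each gene, and the square of shDap5 replicate 2 is the lowest of its group.

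Il18r1, the IL-18-binding chain and the partner of Il18rap, was close to absent, with 71 counts over the 18 libraries and none in 2 of them. In input it had 19, 6 and 12 counts in shDap5 and 2, 4 and 2 counts in NSi. The shDap5 inputs were again above the NSi inputs, replicate 2 being the lowest of them. The ratio of the summed input counts, shDap5 over NSi, was 4.65, given as a description. Light polysomes held 7 counts in shDap5 and 5 in NSi, with an exact 95% interval of the ratio from 0.420 to 6.14. Heavy polysomes held 10 counts in shDap5 and 4 in NSi, with an interval from 0.554 to 8.39. These intervals cover counting error only, and no difference was detectable at this depth on polysomes. The level of Il18r1 per kilobase was 0.0400 CPM in shDap5 and 0.00877 CPM in NSi inputs, while that of Il18rap was 24.6 and 4.49 CPM per kilobase.

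The neighbours Il18rap, Il1rl1 and Il18r1 thus shared an input pattern: high in shDap5 replicates 1 and 3, lower in replicate 2, and lowest in the NSi libraries. For Il18r1 the step from shDap5 replicate 2 to NSi is 6 counts against at most 4, too few to set them apart. The shDap5 input of replicate 2 also stood apart across genes in general. Its chi-square per degree of freedom was 133 against replicate 1 and 132 against replicate 3, while replicates 1 and 3 had 11.9 between them. A departure of this library from the other shDap5 inputs is therefore not particular to these neighbours. How many genes share their full pattern was not counted. Across the 18 libraries the Pearson correlation of Il18rap with Il1rl1 on the log2 (CPM + 0.5) scale was 0.92, rank 3 among all tested genes. Libraries of 1 group share their treatment and fraction, so this is a description. Outside shDap5 inputs 1 and 3 (3.68 and 3.0 CPM), Il1rl1 reached at most 0.790 CPM, near the added 0.5. The value therefore rests largely on those inputs, which are also among the libraries that chose Il18rap. The genes most like Il18rap were Adam12, a metalloprotease (0.96), and Cwh43, whose yeast relative remodels the lipid of GPI anchors (0.93). Pcyt1b, an enzyme of phosphatidylcholine synthesis, stood at 0.92 and Gm31594 at 0.90. In input Adam12 averaged 53.2 ± 22.2 CPM in shDap5 and 9.60 ± 0.481 CPM in NSi, and Cwh43 38.9 ± 11.6 CPM in shDap5 and 5.76 ± 0.529 CPM in NSi. Of the other members Il18 (0.33), Il1rap (0.31), Il1r2 (-0.11) and Il1r1 (-0.34) were less alike. Il33 ran the other way at -0.70.

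The gene table gave 5 neighbours upstream of Il1r2, 1 between the members and 5 downstream of Il18rap. Map4k4, a kinase gene before Il1r2, averaged 360 ± 15.3 CPM in shDap5 and 450 ± 15.5 CPM in NSi inputs (log2 -0.32, SE 0.18, edgeR adjusted p = 0.362). Past Il18rap, Mfsd9 averaged 6.23 ± 0.772 CPM in shDap5 and 4.62 ± 0.0845 CPM in NSi inputs (log2 0.43, SE 0.25, adjusted p = 0.387). Slc9a2, a sodium-proton exchanger, had 40 input counts in shDap5 and 31 in NSi (adjusted p = 0.706). These 3 were the neighbours with enough counts to be tested, and none was called in any comparison of the arms. Slc9a4, also an exchanger and next to Il18rap but for Gm35801, which had no count, had 13, 11 and 11 input counts in shDap5 and 3, 6 and 5 in NSi, without overlap, and was too low to be tested. Its shDap5 replicate 2 did not lie apart from the other shDap5 inputs.

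Il1r1, the signalling receptor of IL-1, was lower in input in all shDap5 libraries. It stood at 7.84, 6.97 and 7.73 CPM in shDap5 and at 10.1, 9.24 and 11.4 CPM in NSi, without overlap (log2 -0.45, SE 0.21). On light polysomes it stood at 7.56, 7.03 and 9.93 CPM in shDap5 and at 11.1, 8.67 and 12.5 CPM in NSi, with overlap (log2 -0.40, SE 0.22, edgeR adjusted p = 0.395). On heavy polysomes it stood at 5.30, 4.99 and 5.61 CPM in shDap5 and at 7.22, 5.27 and 9.75 CPM in NSi, also with overlap (log2 -0.49, SE 0.22, adjusted p = 0.260). In every numbered pair and fraction the shDap5 library was lower, with ratios of 0.576 to 0.947, and neither tested fraction passed, with or without the replicate block.

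Il1r2, the decoy, was near the detection limit: 15 counts in shDap5 and 16 in NSi inputs, 21 and 41 on light polysomes, and 26 and 22 on heavy polysomes. A library with 0 counts could still have held up to 3, or 0.0394 to 0.110 CPM depending on its depth. The largest difference was on light polysomes (log2 -0.83, SE 0.73, edgeR adjusted p = 0.653), where shDap5 replicate 3 had no count and replicate 1 overlapped NSi. Il1rl2, the IL-36 receptor chain, had 7 counts in all, spread over 5 of the 18 libraries, with 1 in each arm in input. No difference in Il1rl2 was detectable at this depth.

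Il1rap, the accessory chain shared by the IL-1, IL-33 and IL-36 receptors, followed Il18rap among the receptor genes in input level per length. In input it stood at 56.3, 34.0 and 51.8 CPM in shDap5 and at 35.4, 32.1 and 39.2 CPM in NSi. The arms overlapped because shDap5 replicate 2 lay within the NSi range (log2 0.41, SE 0.21). On light polysomes it averaged 12.0 ± 0.563 CPM in shDap5 and 10.6 ± 1.62 CPM in NSi (log2 0.17, SE 0.22, edgeR adjusted p = 0.783). On heavy polysomes it averaged 22.9 ± 6.85 CPM in shDap5 and 22.3 ± 3.92 CPM in NSi (log2 0.04, SE 0.21, adjusted p = 0.956). The symbol covers both the membrane-bound and the soluble form, which the counts do not separate. Its exons overlap those of Gm20319 on the opposite strand.

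Il18 and Il33, the ligands, differed in opposite directions in input. Il18 stood at 4.84, 5.12 and 3.75 CPM in shDap5 and at 3.28, 3.33 and 3.22 CPM in NSi, without overlap (log2 0.48, SE 0.37). On polysomes the arms overlapped: light libraries had 5.01, 3.47 and 7.95 CPM in shDap5 and 6.47, 2.43 and 3.81 CPM in NSi (log2 0.36, SE 0.38, edgeR adjusted p = 0.717), and heavy libraries 4.11, 3.48 and 8.36 CPM in shDap5 and 3.02, 3.29 and 5.09 CPM in NSi (log2 0.49, SE 0.38, adjusted p = 0.560). Replicate 3 of shDap5 was high in both; without that replicate the log2 difference was -0.00042 on light and -0.0049 on heavy polysomes.

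Il33, an alarmin stored in the nucleus, stood at 2.50, 2.08 and 1.88 CPM in shDap5 inputs and at 4.73, 3.26 and 4.88 CPM in NSi inputs. The arms did not overlap, and the shDap5 level was about 50.2% of the NSi level (log2 -0.99, SE 0.29). Light polysomes had 1.49, 1.97 and 3.21 CPM in shDap5 and 2.87, 3.03 and 3.97 CPM in NSi (log2 -0.57, SE 0.30, edgeR adjusted p = 0.368). Heavy polysomes had 2.67, 2.39 and 3.73 CPM in shDap5 and 3.68, 3.29 and 5.24 CPM in NSi (log2 -0.47, SE 0.29, adjusted p = 0.448). In every numbered pair and fraction the shDap5 library was lower, with ratios of 0.386 to 0.808. In input the ligand of ST2 was thus lower in the arm where Il1rl1, its receptor, was higher.

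**Figure D2:**
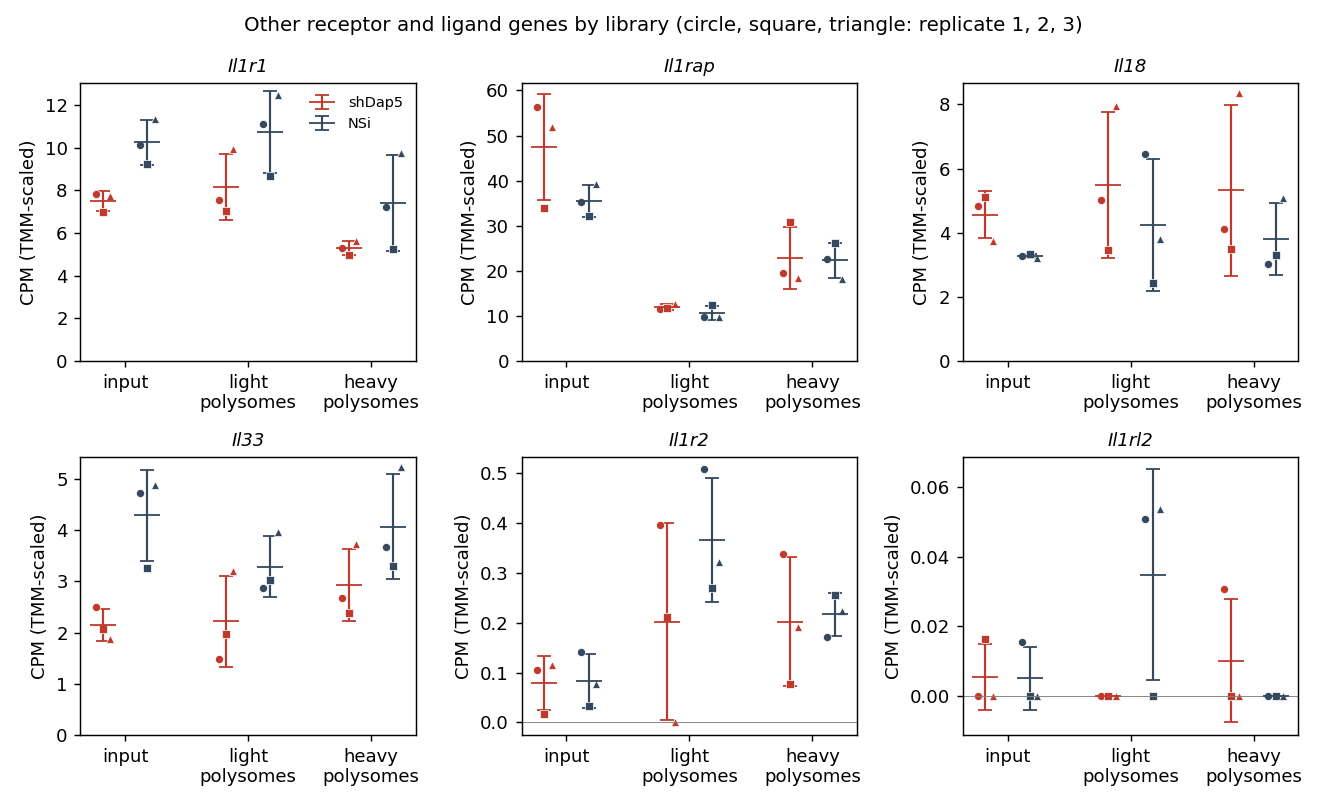
CPM after TMM scaling (vertical axis, scale set per gene) of Il1r1, Il1rap, Il18, Il33, Il1r2 and Il1rl2 in input, light and heavy polysomes, shDap5 in red and NSi in blue; points are libraries, bars the mean ± SD of 3. In input Il1r1 and Il33 lie lower and Il18 higher in shDap5, without overlap of the arms.

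In input 4 of the 7 tested genes had a log2 difference above 0, with a median of 0.41 beside 0.05 over all genes. The arms did not overlap for Il18rap, Il1rl1, Il18, Il1r1 and Il33, that is 5 of the 7 (3 with shDap5 higher and 2 with shDap5 lower), against 37% of all genes tested (20.2% higher and 16.9% lower). Il18rap was chosen for its input difference, so its part in these input counts and in the median was fixed beforehand. Of all genes, 6.95% were called in input (3.01% higher and 3.94% lower). On light polysomes 2 of the 7 did not overlap (Il18rap and Il1rl1), both with shDap5 higher, against 19.9% of all genes (10.2% higher and 9.64% lower). On heavy polysomes it was 1 (Il18rap, higher), against 15.7% (7.6% higher and 8.11% lower). The edgeR test without the replicate numbers called 0 of 7 on light polysomes, where 3.47% of all genes were called (1.83% higher and 1.64% lower). On heavy polysomes it called 0 of 7, where 3.95% of all genes were called (2.03% higher and 1.92% lower). At an unadjusted p under 0.05 there was 1 of the 7 on light polysomes (Il18rap), beside 16.1% of all genes, and 2 on heavy polysomes (Il18rap and Il1r1), beside 17.2%. DESeq2 called none of the 7 on light polysomes, where it called 6.6% of all genes, and Il18rap on heavy polysomes, where it called 6.97%. With the replicate block edgeR called Il18rap on light and on heavy polysomes, beside 6.72% and 7.44% of all genes. The arm difference on heavy relative to light polysomes was called for 0 of 7 and 0% of all genes by edgeR and by DESeq2, with 181 genes at an unadjusted p under 0.05. For Il18rap that value was log2 0.15 (SE 0.48).

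**Figure D3:**
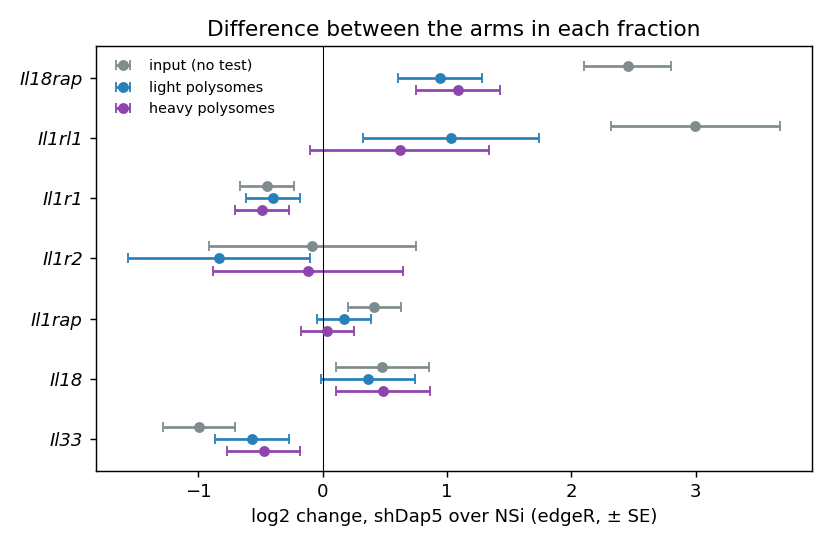
Fitted log2 difference, shDap5 over NSi, with its SE (horizontal axis), for the 7 genes tested, in input (grey, description only), light (blue) and heavy polysomes (purple). Il18rap and Il1rl1 have their largest values in input, at 2.45 and 3.0, and Il33 its lowest there, at -0.99.

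Levels of different genes were compared per kilobase of annotated exon, as means of 3 inputs with SD. In shDap5 the order was Il18rap (24.6 ± 11.9 CPM per kilobase), Il1rap (5.51 ± 1.37), Il18 (4.43 ± 0.703), Il1r1 (1.23 ± 0.0776), Il33 (0.826 ± 0.120), Il1rl1 (0.346 ± 0.252), Il1r2 (0.0556 ± 0.0384), Il18r1 (0.0400 ± 0.0171) and Il1rl2 (0.00135). Il1rap and Il18, Il1rl1 and Il1r2, and Il1r2 and Il18r1 did not differ beyond their spread. In NSi the order was Il18rap (4.49 ± 0.376), Il1rap (4.13 ± 0.412), Il18 (3.18 ± 0.0501), Il1r1 (1.68 ± 0.173), Il33 (1.65 ± 0.342), Il1r2 (0.0588 ± 0.0383), Il1rl1 (0.0430 ± 0.00282), Il18r1 (0.00877 ± 0.00397) and Il1rl2 (0.00129). There Il18rap and Il1rap, Il1r1 and Il33, and Il1r2 and Il1rl1 did not. The accessory chains of Il18rap and Il1rap thus led the receptor genes in input in both arms, above the binding chains of Il18r1, Il1rl1 and Il1r1.

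**Figure D4:**
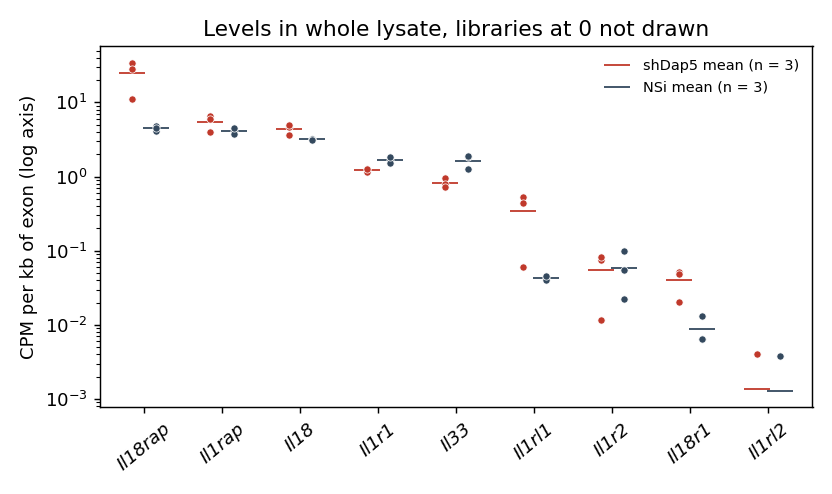
Input level per kilobase of exon on a log axis (vertical) for the 9 genes in order of the shDap5 mean, shDap5 in red left of NSi in blue; points are libraries, lines means of 3, and libraries at 0 are not drawn. Il18rap stands at 24.6 in shDap5 and 4.49 in NSi, and Il18r1 at 0.0400 and 0.00877 CPM per kilobase.

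Position on the gradient was compared with the arms averaged. Il1rap was higher on heavy than on light polysomes (log2 1.0, SE 0.15, edgeR adjusted p = 2.18e-05) and lower on heavy polysomes than in input (log2 -0.86, SE 0.15, adjusted p = 8.72e-05). Its means were 22.9 CPM on heavy, 12.0 on light and 47.4 in input in shDap5, and 22.3, 10.6 and 35.6 CPM in NSi. Il1r1 was lower on heavy than on light polysomes (log2 -0.58, SE 0.15, edgeR adjusted p = 0.00332) and than in input (log2 -0.48, SE 0.15, adjusted p = 0.0110). Il18rap was not called between heavy and light polysomes (log2 -0.12, SE 0.24, adjusted p = 0.679). Il18 (log2 -0.09, SE 0.27) and Il33 (log2 0.36, SE 0.21) were not called between heavy and light polysomes either. Against input, Il1r2 was at log2 1.32 (SE 0.56, adjusted p = 0.0502) and Il1rl1 at -0.92 (SE 0.49, adjusted p = 0.113), both short of the threshold. Each was past it in 4 alternatives, with edgeR adjusted p down to 0.0151 for Il1rl1 and 0.0224 for Il1r2. Neither test decides a difference from input. Il1r2 had at most 9 counts in any input library, under the minimum count of 10, and entered the fit through polysome libraries. The Il1rl1 value rests largely on shDap5 inputs 1 and 3, which are among the libraries that chose Il18rap. Il18rap was at -0.50 (SE 0.24) against input, without a test, since its input libraries chose it. For Il18rap and Il1rl1 these averages joined unlike arms. Il18rap averaged 24.8 CPM on heavy polysomes and 22.0 in input in NSi, but 52.9 and 120 CPM in shDap5. Il1rl1 averaged 0.350 CPM on heavy polysomes and 0.294 in input in NSi, but 0.554 and 2.36 CPM in shDap5. Whether the arms differ in this was not tested. Between heavy and light polysomes 2 of the 7 were called, 1 higher and 1 lower, against 64.2% of all genes (32.6% higher and 31.7% lower). Between heavy polysomes and input, with Il18rap left out, 2 of 6 were called, both lower, against 61.7% of all genes (33.4% higher and 28.3% lower). CPM are shares of each library, so these values compare the make-up of the fractions and not amounts of RNA.

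**Figure D5:**
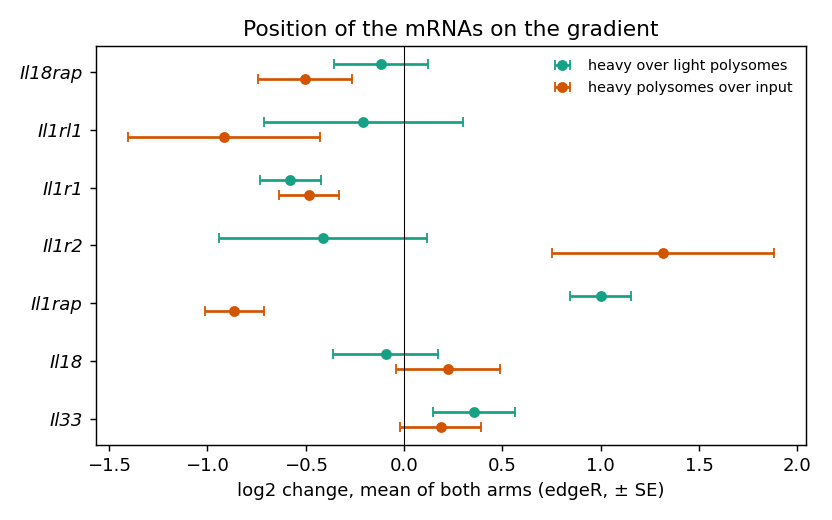
Fitted log2 difference with its SE (horizontal axis), mean of both arms, of heavy over light polysomes (green) and heavy polysomes over input (orange) for the 7 genes tested. Il1rap is at 1.0 over light polysomes and -0.86 over input, while Il1r1 is below 0 in both.

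The other ligands of the family were listed with the pathway. Il1b, the secreted IL-1 made as an inactive precursor, stood at 7.27, 1.87 and 4.54 CPM in shDap5 inputs and at 1.01, 0.691 and 1.31 CPM in NSi inputs. It was higher in shDap5 in input (log2 2.18, SE 0.51, edgeR adjusted p = 0.0130) and on heavy polysomes (log2 1.95, SE 0.54, adjusted p = 0.0497), with log2 1.53 on light (SE 0.50, adjusted p = 0.107). The input call was lost without shDap5 replicate 1 (log2 1.67, adjusted p = 0.145), NSi replicate 1 (adjusted p = 0.0895) or NSi replicate 2 (adjusted p = 0.0544). The heavy call was lost in 8 of 13 alternatives, with adjusted p up to 0.225. Il1a, the IL-1 that is active as made, stood at 605, 270 and 490 CPM in shDap5 and at 247, 236 and 234 CPM in NSi inputs, without overlap (log2 0.93, SE 0.32, adjusted p = 0.101). As with the receptor genes, shDap5 replicate 2 was the lowest shDap5 input for both. Of the 6 listed ligands these 2 were tested; Il1f6, Il1f8, Il1f9 and Il1f10 had at most 23 counts in any group.

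Among the decoys and other receptors, 0 of 4 tested (of 6 listed) were called between the arms in any fraction. Of all genes, 6.95% were called in input, 3.47% on light and 3.95% on heavy polysomes. Sigirr, an inhibitory receptor, averaged 55.2 ± 3.38 CPM in shDap5 and 55.7 ± 2.55 CPM in NSi inputs (log2 -0.01, SE 0.17). Il1rn, the IL-1 receptor antagonist, was at log2 -0.78 (SE 0.54, adjusted p = 0.486) and Il18bp, the binding protein that neutralises IL-18, at 0.29 (SE 0.41, adjusted p = 0.774). Of 20 adaptors and kinases, all tested, 1 was higher and 0 lower in input, beside 3.01% and 3.94% of all genes. On light polysomes 0 were called, beside 3.47% of all genes, and on heavy polysomes 1 was lower, beside 1.92%. The gene called lower was Irak3, whose test is limited as stated below. The median log2 difference in input was 0.10, beside 0.05 over all genes. Irak1, the receptor-associated kinase, averaged 201 ± 12.1 CPM in shDap5 and 145 ± 4.54 CPM in NSi inputs (log2 0.47, SE 0.14, adjusted p = 0.0436). That call was lost without a low-count filter (adjusted p = 0.183) and when any replicate but shDap5 replicate 2 was left out (adjusted p 0.124 to 0.175). Irak3, an inhibitory family member, had 0 counts on shDap5 heavy polysomes and 17 on NSi heavy polysomes (edgeR adjusted p = 0.0312). That call was lost when any replicate but NSi replicate 1 was left out (adjusted p 0.0551 to 0.178). The test decides nothing, because Irak3 passed the low-count filter only through NSi libraries, where it was higher. No shDap5 library held more than 5 counts of it.

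Of 11 genes of the inflammasome and cytokine processing, which mature IL-1β and IL-18, 7 were tested. In input 2 were lower and 0 higher, beside 3.94% and 3.01% of all genes. None was called on polysomes, beside 3.47% of all genes on light and 3.95% on heavy polysomes. Casp1, the protease that cleaves both precursors, averaged 2.47 ± 1.37 CPM in shDap5 and 8.12 ± 0.612 CPM in NSi inputs (log2 -1.71, SE 0.38, edgeR adjusted p = 0.00976). Aim2, a sensor of cytosolic DNA, averaged 0.348 ± 0.167 CPM in shDap5 and 1.79 ± 0.369 CPM in NSi inputs (log2 -2.36, SE 0.47, adjusted p = 0.00427). Without shDap5 replicate 1 both missed the threshold, at adjusted p = 0.0803 for Casp1 and 0.0591 for Aim2, and Casp1 did so without NSi replicate 1 (adjusted p = 0.0582). The median log2 difference of the 7 in input was -0.31, beside 0.05 over all genes.

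Of 22 NF-κB target genes, all tested, 0 were higher and 3 lower in shDap5 inputs, beside 3.01% and 3.94% of all genes. On light polysomes 1 was lower and on heavy polysomes 1, beside 1.64% and 1.92% of all genes. The median input log2 difference was -0.19, beside 0.05 over all genes, and 7 of the 22 had a value above 0, none of them called. Ccl2, a monocyte chemokine, averaged 0.953 ± 0.214 CPM in shDap5 and 3.67 ± 0.962 CPM in NSi inputs (log2 -1.93, SE 0.29, edgeR adjusted p = 0.000504). It was also lower on light (log2 -2.00, SE 0.29, adjusted p = 0.000954) and heavy polysomes (log2 -1.26, SE 0.29, adjusted p = 0.0183), the heavy call being lost when any replicate but NSi replicate 2 was left out (adjusted p 0.0524 to 0.104) and with only the heavy libraries (adjusted p = 0.141). Saa3, an acute-phase protein, averaged 0.293 ± 0.193 CPM in shDap5 and 1.90 ± 0.237 CPM in NSi inputs (log2 -2.68, SE 0.47, adjusted p = 0.00182). Icam1, an adhesion molecule, was at -1.58 (SE 0.46, adjusted p = 0.0451), a call lost when any replicate but shDap5 replicate 2 was left out (adjusted p 0.0903 to 0.233), without a low-count filter (adjusted p = 0.109) and with only the input libraries (adjusted p = 0.131). Without shDap5 replicate 2 it was at -2.71 (adjusted p = 0.000286).

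Markers of cells that carry these receptors were measured in the same libraries. The 15 T and NK cell markers summed to 1.88 to 2.63 CPM in shDap5 and 4.19 to 4.59 CPM in NSi inputs, with Cd2, Ncr1 and Nkg7 at 0 in both arms. Most of that sum was Lck, at 1.89 CPM in shDap5 and 3.38 CPM in NSi inputs. The 9 mast cell markers summed to 0.788 to 1.13 CPM in shDap5 and 1.76 to 2.23 CPM in NSi inputs, with Cma1, Fcer1a, Mcpt4 and Tpsb2 at 0 in both. The largest term was Gata2, at 0.510 CPM in shDap5 and 1.53 CPM in NSi, while Cpa3 stood at 0.286 CPM in shDap5 and 0.173 CPM in NSi and Ms4a2 at 0.0706 CPM in shDap5 and 0.0158 CPM in NSi. Ptprc, the leukocyte antigen CD45 and 1 of the T and NK markers, had 38, 1 and 16 input counts in shDap5 and 5, 8 and 4 in NSi. Like the receptor genes it was high in shDap5 replicates 1 and 3, but unlike them it lay below all NSi inputs in shDap5 replicate 2. Ptprc had 0, 1 and 0 counts in shDap5 and 2, 0 and 0 in NSi on light polysomes, and 0, 0 and 2 counts in shDap5 and 4, 3 and 0 in NSi on heavy polysomes. The 9 macrophage markers summed to 36.1 to 74.0 CPM in shDap5 and 56.6 to 63.9 CPM in NSi inputs, with C1qa and C1qb at 0. Of these 9, 5 were tested in input, with a median log2 difference of -0.81 and 2 values above 0. Csf1r was called higher and Lyz2 lower, beside 3.01% and 3.94% of all genes. Csf1r stood at 12.2, 9.77 and 9.44 CPM in shDap5 and 2.54, 2.11 and 2.13 CPM in NSi inputs. Lyz2 averaged 0.0999 ± 0.114 CPM in shDap5 and 0.799 ± 0.509 CPM in NSi inputs, and Cd68 24.6 ± 22.8 CPM in shDap5 and 43.0 ± 2.71 CPM in NSi inputs. Neutrophil markers summed to at most 1.39 CPM in shDap5 and 1.56 CPM in NSi inputs, and on light polysomes to at most 6.38 CPM in shDap5 and 8.51 CPM in NSi. Endothelial markers summed to at most 1.62 CPM in shDap5 and 3.44 CPM in NSi inputs, and on light polysomes to at most 3.92 CPM in shDap5 and 6.78 CPM in NSi. The part of Ptprc, Csf1r and the other markers in the receptor values was not tested. The 10 epithelial carcinoma markers, Epcam and keratins among them, summed to 4668 to 5239 CPM in shDap5 and 3158 to 3508 CPM in NSi inputs, and all 10 were detected in both arms. In such bulk samples, fewer cells of a type and less RNA per cell cannot be told apart.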

How the data were processed

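Polyadenylated RNA was sequenced from stranded libraries of input, light polysomes and heavy polysomes of both arms. The deposited values are raw counts by gene symbol, 1 file for each library. Alignment was with Bowtie to mouse build mm9, per the submitters' processing notes. The sources used here do not give the aligner's version, the counting program or its use of strand, so reads of overlapping antisense genes may be shared. Of the 35976 symbols, 27 were written as dates and none of these is named.

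Groups came from the sample titles. edgeR 4.0.16 (R 4.3.3) fitted all 18 libraries with 1 mean per group and its robust quasi-likelihood test, after TMM scaling (factors 0.820 to 1.21) and filterByExpr (minimum count 10, minimum total 15). Residual degrees of freedom were 12, and the common biological coefficient of variation was 0.227. Benjamini-Hochberg adjustment covered all 15072 genes of a comparison; "called", "higher" and "lower" of a test mean an adjusted p under 0.05. The SE is the log2 difference over the square root of F. DESeq2 1.42.0 and other settings were alternatives; leaving out a replicate removed the libraries of that arm and number in all fractions. The script was tested on simulated counts. Replicates always differed by more than sampling noise (lowest chi-square per degree of freedom 9.57).

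Replicate numbers come from the titles. Deviations from the group means of same-numbered libraries of the 2 arms correlated at 0.138 to 0.376 in input, at 0.545 to 0.795 on light polysomes and at 0.527 to 0.826 on heavy polysomes (10308 genes). They correlated at 0.520 to 0.754 between heavy and light polysomes of an arm. The numbers were therefore taken to pair these libraries. Between heavy polysomes and input the correlations ran from -0.319 to 0.431, so there they were not.

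The 9 genes and the pathway, neighbour and marker lists were chosen with earlier results of these data known. Named beyond the 9 were called genes of each pathway list (or up to 4 with the smallest p), neighbours of the chromosome 1 cluster, the 5 genes most correlated with Il18rap, and Eif4g2. Of the markers, those given with values of their own were named after their values were seen. Exon lengths and overlaps come from GENCODE M21 and upstream windows from RefSeq, both on GRCm38, another build than that of the counts; levels per kilobase are therefore approximate.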

Additional observations from a re-analysis of the deposited data

How the results depend on the processing

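The counts of genes called between the arms moved with the fit. In input 1047 genes were called, against 1798 with the replicate number as a block, 3330 with a replicate block within fraction, 2218 with only the input libraries, 1712 without the shDap5 input of replicate 2 alone (an alternative chosen after seeing the data) and 419 to 2005 with a replicate left out. On light polysomes 523 were called, against 995 by DESeq2, 1013 with the block, 2431 with the block within fraction, 219 with only light libraries and 158 to 648 with a replicate or that library left out. On heavy polysomes 595 were called, against 1050 by DESeq2, 1122 with the block, 2765 with the block within fraction, 56 with only heavy libraries and 172 to 777 with a replicate left out. The cause was not tested.

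In input, 6 of the 7 tested genes kept their direction in all alternatives run, and Il1r2 ran from -0.45 to 0.50 (positive without NSi replicate 1 and without shDap5 replicate 2). Uncalled log2 values near 0 changed sign when a replicate was left out. Il18 ran from -0.00042 to 0.81 on light and from -0.0049 to 0.76 on heavy polysomes, and from -0.085 to 0.38 on heavy polysomes against input, each lowest without shDap5 replicate 3. On heavy polysomes Il1r2 ran from -0.60 to 0.24 (positive without NSi or shDap5 replicate 2, at 0.013 and 0.24) and Il1rap from -0.23 to 0.18 (negative without shDap5 replicate 2 or NSi replicate 3, at -0.23 and -0.085). In heavy relative to light, Il18 ran from -0.46 to 0.47 (negative without NSi replicate 1 or shDap5 replicate 3, at -0.46 and -0.0045). Eif4g2 ran from -0.0015 (without NSi replicate 1) to 0.20, and Il33 from -0.060 (without shDap5 replicate 1) to 0.23. Il1r1 ran from -0.15 to 0.041 (positive without NSi or shDap5 replicate 3, at 0.041 and 0.029), and Il1rap from -0.42 to 0.043 (positive without shDap5 replicate 3). Il18 on heavy against light polysomes ran from -0.26 to 0.20 (positive without NSi replicate 1).

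The calls of Il1rap and Il1r1 along the gradient held in all 12 alternatives. Between the arms the replicate block changed no call of the 9 genes or of Eif4g2 beyond those given. On heavy polysomes against input, where the numbers did not pair the libraries, it brought Il1rl1 (adjusted p = 0.0385) and Il1r2 (adjusted p = 0.0224) past the edgeR threshold. Il1rl1 was also called there without NSi replicate 1, without shDap5 replicate 2 and without that library alone, and Il1r2 by DESeq2, without a low-count filter and without shDap5 replicate 3 (adjusted p 0.0151 to 0.0485). None of these calls decides a difference from input, for the reasons given with the gradient. Depth limits Il18r1, Il1rl2, Il1r2 and Irak3, which rest on few counts.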
